A study of Oryza sativa with 12 samples.

Results

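The 97 genes described here were chosen by their level in this experiment, from 40424 identifiers in the deposited table. A gene was kept when its RNA was plentiful in the counts of every group and its group means lay close together. In each group M was taken as log2 of the mean normalised count of 3 libraries plus 1, where a normalised count is a read count divided by the library's median-of-ratios size factor. The smallest M over the 4 groups had to be at least 12, a mean of 4095 normalised counts, and the largest M could exceed the smallest by at most 0.4, a 1.32-fold difference. Of the 899 genes that met the level condition, 97 (10.8%) also met the range condition, and the other 802 are called the other abundant genes below. The rule used the means of all 4 groups, so the levels of the members and the differences between groups are descriptions, and the closeness of their group means is not a finding.

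The study asked how the circadian clock and the response to chilling are coordinated in rice. RNA was sequenced from the above-ground parts of seedlings of the indica cultivar 93-11 at the 3-leaf stage, grown at 28 °C with 12 h light alternating with 12 h dark. The labels give a seedling age of 10 days and harvest on day 11 for all groups. Zeitgeber time (ZT) counts hours from lights-on. In the growth cycle ZT8 to ZT12 falls in the light and ZT20 to ZT24 in the dark, so time and light differ together. In group CT24 the seedlings spent the 4 h from ZT20 to ZT24 at 13 °C, and in NT24 they stayed at 28 °C until the same harvest. CT12 seedlings were at 13 °C for the 4 h from ZT8 to ZT12, and NT12 seedlings stayed at 28 °C until ZT12. Each group had 3 libraries, each from a pool of 5 plants of this single cultivar, and no group carried a mutation or a transgene according to the labels. Total counts ranged from 42966604 to 52762123 per library. No member had fewer than 1799 counts in any library, at which counting alone gives a coefficient of variation (CV) of 2.36%, which is small beside the spread between libraries given below.

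Genes whose RNA level changes little between conditions are used as internal controls, also called reference genes, when the RNA of other genes is compared between samples. In plants such controls are usually taken from basic cell functions, among them actin and tubulin of the cytoskeleton, ubiquitin of protein turnover, and the factors that carry out translation. RNA sequencing measures shares of a library, so whether a gene is steady depends on what the library is scaled to. Daily rhythms and cold both alter a large part of the rice transcriptome, which makes the choice of a control matter in an experiment that crosses the 2.

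Identifiers are given without gene names, and 0 of the 40424 in the whole table matched the reference gene table. The same therefore held for the members, with 0 of 97. No role can therefore be given for any of them, and whether common rice reference genes or leaf marker genes are among them was not tested. There were 95 members of the OsR498G type and 2 of another type, Novel01162 and Novel01482. Of the 899 abundant genes 7 were of the second type, and the whole table held 38714 and 1710 identifiers of the 2 types. The 2 digits after the OsR498G prefix, read as numbers, run from 0 to 12 in the whole table, and every value from 1 to 12 had members. Counts per value ranged from 2 members, for values 10, 11 and 12, to 18 members, for value 5. The 18 were 21.7% of the 83 abundant genes with that value, against 10.8% of abundant genes overall. This value was singled out after the counts were seen, and its share was not tested.

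Smallest M had a median of 12.63 in members and of 12.70 in the other abundant genes. Mean M over the 4 groups, which a wide range between groups raises, had a lowest value of 12.08, a median of 12.81 and a highest of 15.35, against a median of 13.39 and a highest of 19.51 in the other abundant genes. These are counts and are not divided by gene length, so their order is not an order of transcript number. In 10 members mean M was at least 14, and in 1 it was at least 15. The 10 members with the highest levels held 27.2% of all member counts. Near-equal group means were about as frequent at lower levels. The range was at most 0.4 in 10.2% of the 3357 genes with a smallest M from 9 to 10, in 11.1% of 2887 from 10 to 11, in 11.5% of 1627 from 11 to 12, in 11.3% of 585 from 12 to 13 and in 9.87% of 314 at 13 or above. Below a smallest M of 9 the share was lower, down to 1.84% of 2179 genes from 6 to 7, where the median within-group CV was also higher (21.8%, against 10.1% from 11 to 12).

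**Figure D1:**
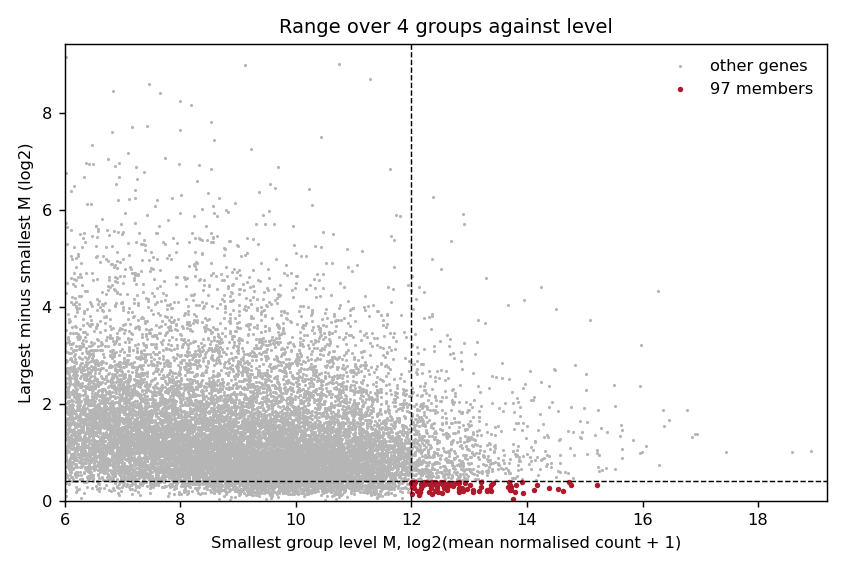
The largest minus the smallest group level M (log2, vertical axis) is plotted against the smallest M (log2 of mean normalised count plus 1, horizontal axis) for every gene with a smallest M of at least 6. Dashed lines mark the thresholds of 12 and 0.4, and the 97 members (red) fill the corner below and to the right of them, at the lower edge of a continuous cloud of other genes (grey).

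The range of M over the 4 groups ran from 0.045 to 0.397 in the members, with a median of 0.32, against a median of 1.09 in the other abundant genes. It was at most 0.2 in 16 members and at most 0.3 in 45. Both thresholds cut through a continuous distribution. There were 30 members with a range above 0.35, and 19 abundant genes lay just outside, with a range above 0.4 and at most 0.45. The last member inside the range threshold, OsR498G1120081300.01, had M of 14.01 in CT24, 14.09 in NT24, 14.02 in CT12 and 13.69 in NT12, a range of 0.397. The first gene outside, OsR498G0306884400.01, had 12.90 in CT24, 12.87 in NT24, 12.49 in CT12 and 12.68 in NT12, a range of 0.401. On the level threshold, the last member inside was OsR498G0409432100.01 with a smallest M of 12.0009, and the first gene outside was OsR498G0510853700.01 with 11.993 and a range of 0.12.

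The 3 members with the highest levels had high counts in every library. OsR498G0306970700.01 had 51271, 37981 and 35570 normalised counts in CT24 and 35560, 44816 and 42293 in NT24. At ZT12 it had 39471, 48151 and 54735 in CT12 and 34158, 40702 and 38841 in NT12. Its groups overlapped at both times, and its highest library was 1.60 times its lowest. OsR498G0409308500.01 averaged 34617 ± 2156 in CT24 and 27770 ± 3956 in NT24 (SD, n = 3). There the 3 chilled libraries, at 33787, 37064 and 33000, lay above the 3 at 28 °C, at 31497, 23620 and 28192. In the edgeR test described below this difference, 0.30 on the log2 scale (SE 0.16), did not pass (adjusted p = 0.167). At ZT12 the same gene averaged 33376 ± 6150 in CT12 and 30137 ± 3553 in NT12, and these libraries overlapped. OsR498G0100510600.01 averaged 29703 ± 4790 in CT24, 27056 ± 3834 in NT24, 35418 ± 5878 in CT12 and 28500 ± 1328 in NT12, and its chilled libraries overlapped those at 28 °C at both times.

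The member with the smallest range was OsR498G1222126600.01, whose group means differed by 0.045 in M. Its normalised counts were 12729, 15110 and 14618 in CT24 and 14427, 14042 and 14321 in NT24, and 15542, 11361 and 15889 in CT12 and 13100, 14273 and 14118 in NT12. The lowest and the highest of the 12 values were both in CT12, where the CV was 17.7%, while in NT24 it was 1.40%. Close group means thus went together with libraries that differed by up to 1.40 times.

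At the other end of within-group spread stood OsR498G0611711000.01, with the smallest mean CV of the members, 4.23%. It had 7600.5, 7355 and 6944 normalised counts in CT24, 7601 and 7261 and 8019 in NT24, 7275, 7452 and 7636 in CT12, and 5743, 6344 and 6042 in NT12. All 9 libraries of the first 3 groups lay above the 3 of NT12. OsR498G0509910600.01 had the largest mean CV, 46.0%, with 24043, 10707 and 15372 in CT24, 18639, 12603 and 12447 in NT24, 5099, 28628 and 15714 in CT12, and 7395, 12704 and 20142 in NT12. Its libraries differed by up to 5.61 times, and its group means came within a range of 0.32 of each other. By the rule both count as steady, the first with tight groups that differ and the second with wide groups that overlap.

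**Figure D2:**
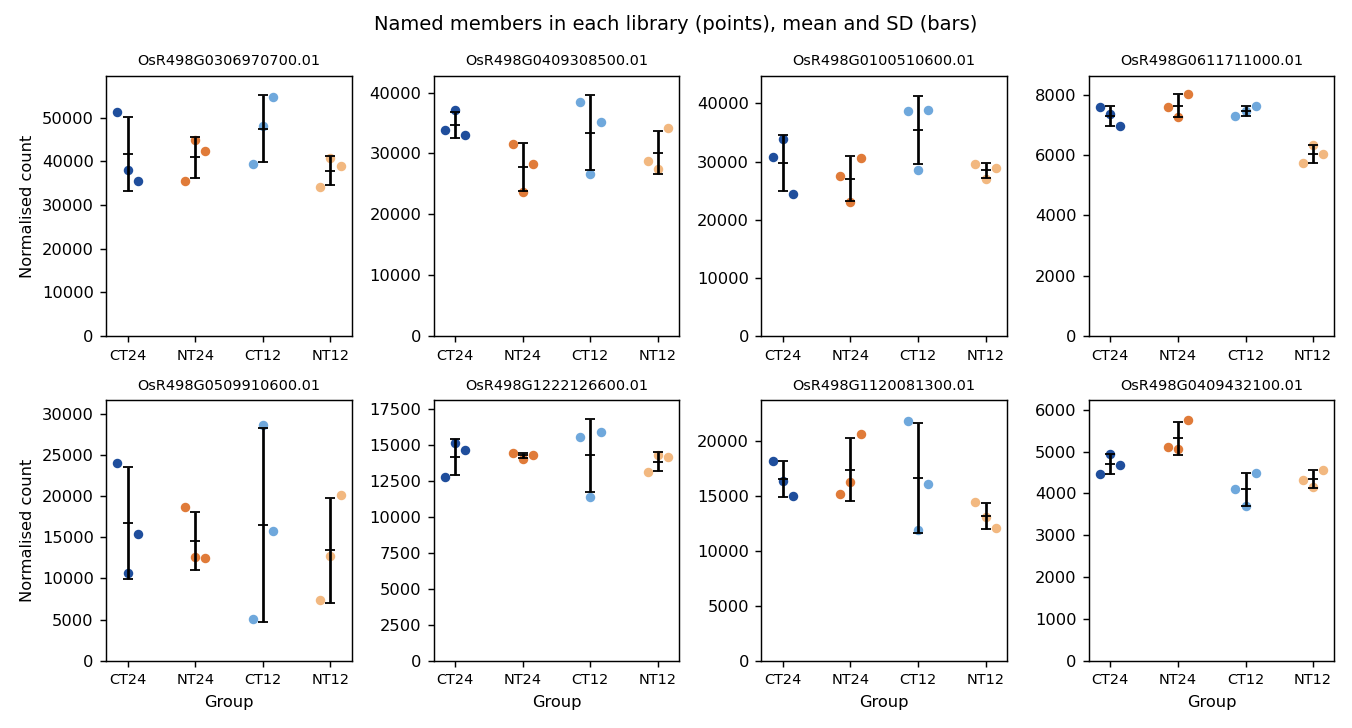
Normalised counts (vertical axes, from 0) of 8 members in each library, with groups CT24, NT24, CT12 and NT12 from left to right. Points are the 3 libraries of a group and bars the mean and SD. The groups of OsR498G0611711000.01 are tight, with NT12 lowest, while those of OsR498G0509910600.01 spread from 5099 to 28628.

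Across all members the highest library stood between 1.21 and 5.61 times above the lowest, with a median of 1.60, against a median of 3.07 in the other abundant genes. In 30 members all 12 libraries lay within a factor of 1.5, and in 24 members the highest library was at least 2 times the lowest. The member with the smallest such ratio, 1.21, was OsR498G0509769800.01, singled out after its values were seen. The spread between libraries of a group had nearly the same median in members and others. Averaged over the 4 groups, the within-group CV had a median of 12.0% in members and 12.3% in the other abundant genes. The biological CV of edgeR, which models the spread beyond counting error, had a median of 0.164 in members, from 0.116 to 0.454, and of 0.165 in the other abundant genes. In 34 members (35.1%) the range of M was smaller than the SD between libraries of a group, pooled over groups on the log2 scale, and in 71 (73.2%) it was below 2 such SDs. The same held for 2.12% and 13.6% of the other abundant genes, which the rule had kept apart by their wider range.

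Spread was widest in seedlings chilled before ZT12. The median CV of the members was 8.93% in CT24, 9.0% in NT24, 17.9% in CT12 and 6.88% in NT12, and in the other abundant genes it was 9.71%, 10.8%, 16.7% and 9.05% in the same groups. In 64 of 97 members CT12 was the group with the highest CV, as it was in 457 of the 802 others. A single library stood apart, CT12 replicate 2. It was the lowest of all 12 libraries for 38 members and the highest for 7, and its members lay at a median of -0.22 log2 from their group mean, against 0.10 in CT12 replicate 1, 0.18 in CT12 replicate 3 and between -0.094 and 0.059 in the 9 other libraries. In the other abundant genes the same library had a median of -0.20. Without it the median CV of the members in CT12 was 5.66%. CT12 replicate 3 was the highest of all 12 libraries for 39 members and the lowest for none.

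**Figure D3:**
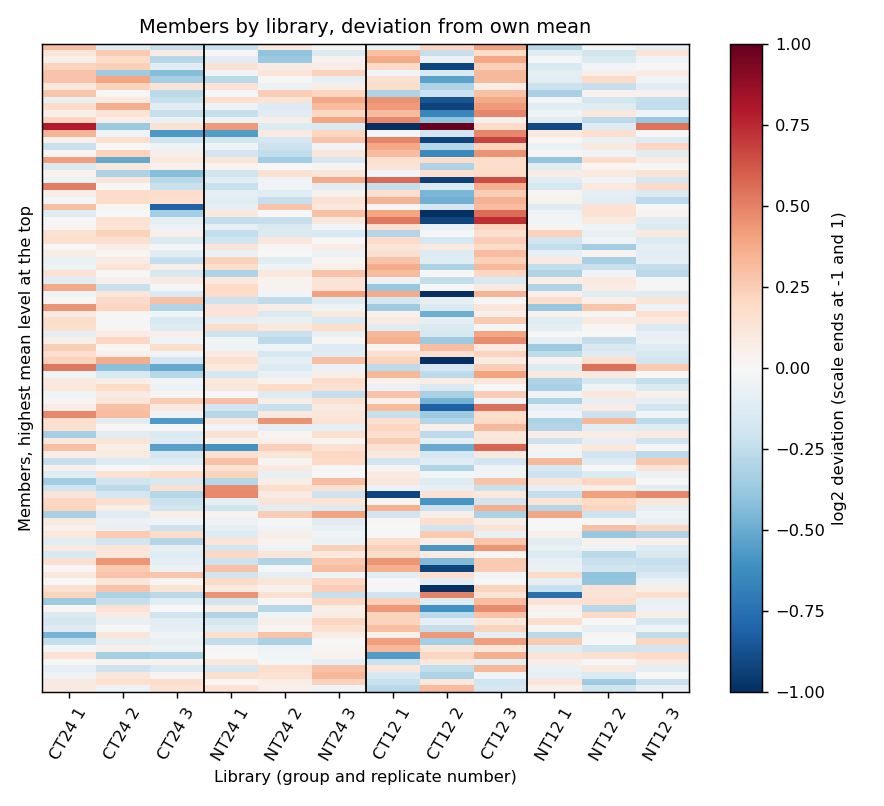
Deviation of each member's log2 normalised count from its own mean over the 12 libraries, with 1 row per member (highest mean level at the top) and 1 column per library, in the order CT24, NT24, CT12 and NT12. Red is above and blue below the mean, with colours ending at -1 and 1. The column of CT12 replicate 2 is mostly blue, and it is the lowest library for 38 members.

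After group means were removed, 1 component, most of it within CT12, held 60.7% of the variance of the members and 68.8% of that of the other abundant genes. Its weights in the members were 0.76 for CT12 replicate 2 and -0.40 and -0.37 for CT12 replicates 1 and 3, against sizes of 0.19 or less in the 9 other libraries. Size factors taken from the members alone were 0.853 times those from all genes in CT12 replicate 2 and 1.15 times in CT12 replicate 3, and between 0.936 and 1.07 times in the other 10 libraries. What sets CT12 replicate 2 apart is not given in the labels and was not tested.

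**Figure D4:**
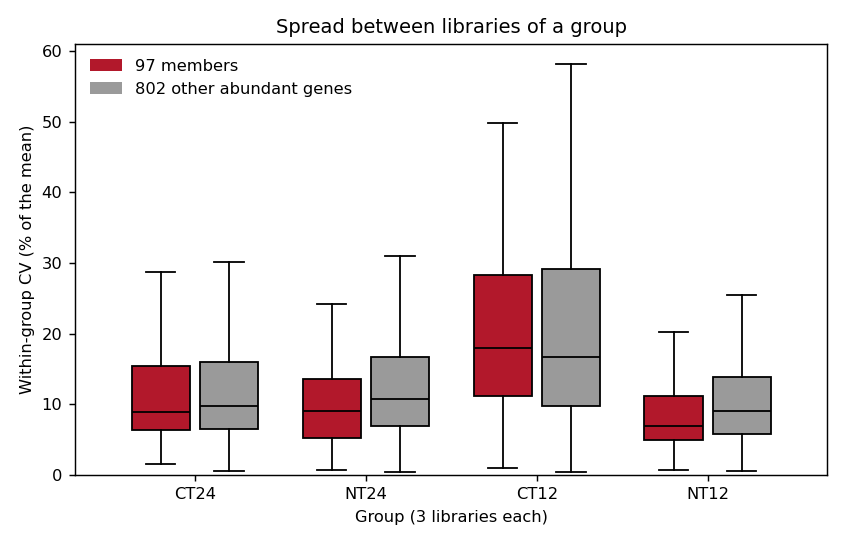
Within-group CV (percent of the mean over 3 libraries) in CT24, NT24, CT12 and NT12 for the 97 members (red) and the 802 other abundant genes (grey). Boxes span the quartiles with the median as a line, whiskers end at the last value within 1.5 times the box height, and points beyond them are not drawn. CT12 has the widest spread in both sets, with medians of 17.9% and 16.7%.

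The members are steady relative to the median gene and not as a share of all counts. They held 2.13%, 1.96% and 1.82% of the counts in CT24 and 1.88%, 2.03% and 2.09% in NT24. At ZT12 they held 1.60%, 1.49% and 1.77% in CT12 and 2.47%, 2.64% and 2.53% in NT12, so the share of every CT12 library lay below that of every NT12 library. In CPM (counts divided by the library total and multiplied by a constant) the ratio of group means of CT12 over NT12 was below 1 for all 97 members, with a median of 0.628 and a span from 0.445 to 0.764, and for 534 of the 802 other abundant genes, with a median of 0.825. For 90 members all CPM of CT12 lay below all of NT12, as they did for 56.3% of the 24700 genes that passed the expression filter. The size factors differ in the same sense, at 0.680, 0.803 and 0.715 in CT12 and 1.37, 1.42 and 1.40 in NT12, although total counts were within 42966604 to 49507292 in these 6 libraries. What lies behind the lower share, which many other genes had as well, was not tested. In bulk samples such as these, fewer cells of a type and less RNA per cell cannot be told apart either.

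Between ZT24 and ZT12 the share also differed at 28 °C. The CPM ratio of NT24 over NT12 was below 1 for all 97 members, with a median of 0.798, and in 62 of them the libraries did not overlap, against 44.9% of all genes tested with NT24 below NT12. Under chilling the ratio of CT24 over CT12 was above 1 for 91 members, with a median of 1.22, and in 40 the CT24 libraries all lay above those of CT12, against 36.2% of all genes. These directions too follow largely from the size factors and the rule. The chilling pair at ZT24 showed no such offset, with a median ratio of CT24 over NT24 of 0.976, above 1 for 36 members and below 1 for 61. When the rule was applied to total-count scaling it kept 73 genes, and 5 of them were among the 97. Trimmed-mean scaling (TMM, edgeR's default) kept 92 genes, of which 88 were members, and upper-quartile scaling kept 120, of which 72 were.

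**Figure D5:**
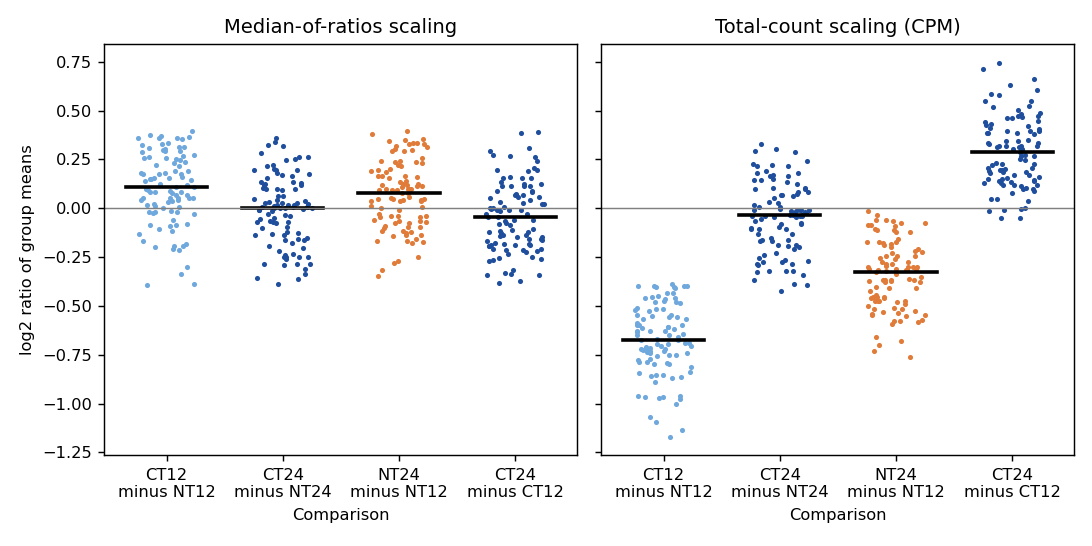
The log2 ratio of group means for each of the 97 members (points) in 4 comparisons, under median-of-ratios scaling (left panel) and as CPM (right panel), with the median as a black bar. In the left panel every point is within 0.4 of 0 by the rule. In the right panel all 97 points of CT12 minus NT12 and of NT24 minus NT12 lie below 0, which follows from the rule and the size factors.

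Within the narrow band that the rule allows, the groups still had an order. CT12 was the highest group in 40 members, NT24 in 26, CT24 in 23 and NT12 in 8. NT12 was the lowest group in 40, NT24 in 23, CT24 in 17 and CT12 in 17. In the other abundant genes CT12 was also most often the highest, in 43.9%, and NT12 most often the lowest, in 45.3%, while CT24 was the highest more often than NT24, in 225 against 188 genes. The median difference of M over the members was 0.11 for CT12 minus NT12, 0.00072 for CT24 minus NT24, 0.081 for NT24 minus NT12 and -0.044 for CT24 minus CT12. At both times 42 members had a higher M and 16 a lower M in chilled seedlings, 30 were higher at ZT12 and lower at ZT24, and 9 the reverse. Each time taken alone, 72 members were higher at ZT12 and 51 at ZT24, as were 637 and 463 of the 802 other abundant genes. Under TMM scaling 43 members were higher at ZT24. All of these signs are relative to the scaling. In edgeR's fit, where the medians were 0.10 for CT12 minus NT12 and 0.098 for NT24 minus NT12, single libraries also moved them. The first became -0.024 without CT12 replicate 3 and 0.21 without CT12 replicate 2, and the second became 0.0045, 0.010 and 0.012 without NT12 replicates 1, 2 and 3, 0.040 without NT24 replicate 3 and 0.026 without CT24 replicate 2.

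Few members passed the test for a difference between groups, which the rule itself kept small. Groups were compared with the quasi-likelihood test of edgeR under TMM scaling, fitted to all 24700 genes that passed the filter, with Benjamini-Hochberg adjustment over them. All 97 members were among these genes, and a gene is called when its adjusted p is below 0.05. In CT12 against NT12, 8 members were called, 7 higher and 1 lower, where 44.9% of all genes were called, 24.9% higher and 20% lower. In CT24 against NT24, 4 members were called, 1 higher and 3 lower, against 42.1% of all genes, 21.9% higher and 20.2% lower. In NT24 against NT12, 8 members were called, 7 higher and 1 lower, against 44.1% of all genes, 23.2% higher and 20.9% lower. In CT24 against CT12, 1 member was called, as lower, against 42.1% of all genes, 20.3% higher and 21.8% lower. For the interaction, the response at ZT24 minus the response at ZT12, 3 members were called, 1 higher and 2 lower, against 22.2% of all genes, 9.24% higher and 13% lower. In all, 16 members were called in at least 1 of the 5 comparisons and 81 in none. The matching share of all genes was not taken, and the rule's limit on the range itself keeps such calls few. A member with no call is not shown to be unchanged.

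These counts changed with the scaling, with single libraries and with the groups fitted. Under total-count scaling 88 members were called lower in CT12 than in NT12, 36 lower in NT24 than in NT12, 28 higher in CT24 than in CT12 and 54 higher in the interaction, against 53%, 35.2%, 31.4% and 37.6% of all genes in those directions. That scaling moved the median log2 change of all genes by more than 0.1 in these comparisons, to -0.77, -0.39, 0.34 and 0.73, and relative to it the members' medians were 0.098, 0.062, -0.055 and -0.11. Relative to the median of all genes under TMM they were 0.12, 0.058, -0.070 and -0.12. Without CT12 replicate 2 the calls became 30 in CT12 against NT12, 7 in CT24 against NT24, 15 in NT24 against NT12, 20 in CT24 against CT12 and 15 in the interaction, of the same 97 members. The 8 calls in CT12 against NT12 became 3, 4 and 2 without NT12 replicates 1, 2 and 3, 3 without CT12 replicate 3, and 0 by edgeR with only these groups fitted, where 6 members had an unadjusted p below 0.05, limma-voom called 8 with all groups and DESeq2 9. The 4 in CT24 against NT24 became 1 without NT24 replicates 1 or 2 or CT24 replicates 2 or 3, and the 8 in NT24 against NT12 became 3, 4 and 3 without NT12 replicates 1, 2 and 3. The 3 in the interaction became 1 without any 1 of the NT12 replicates, NT24 replicate 1, CT12 replicate 1, or CT24 replicates 1 or 3. Apart from total-count scaling, the share of all genes called in these refits is not given. Their counts are therefore not read as results about the members.

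The libraries of compared groups seldom separated in the members, whose group means the rule had kept close. Their lower shares, set beside all genes here, therefore follow at least in part from the rule. In normalised counts, all 3 libraries of a group lay beyond all 3 of the other for 14 members in CT12 against NT12, where 54% of all genes tested did so. They did so for 16 members in CT24 against NT24 (56.9% of all genes), for 24 in NT24 against NT12 (58.7%) and for 6 in CT24 against CT12 (49.5%). Of the 24 in the comparison of times at 28 °C, 20 had NT24 above NT12, as had 400 of 552 such genes among the other abundant genes. The direction depends on the scaling, since in CPM the ratio of NT24 over NT12 was below 1 for all 97 members.

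Among the members called at ZT12, OsR498G0816309200.01 had the largest rise. It had 7480, 6718 and 8113 normalised counts in CT12 and 5290, 6012 and 5946 in NT12, with no overlap. Its change was 0.36 on the log2 scale, with an SE of 0.10 and an edgeR adjusted p of 0.0145. The call was lost without NT12 replicate 1 (0.28), without CT12 replicate 3 (0.28), with only these groups fitted (0.31) and under upper-quartile scaling (0.068), and the change lay 0.38, 0.38 and 0.37 above the median of all genes under TMM, upper-quartile and total-count scaling. Under total-count scaling itself the change was -0.40 and was called as a fall, not as a rise. EdgeR, limma-voom or DESeq2 adjusted p ranged from 0.00145 to 0.598 over 20 alternatives.

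The member with a called fall at ZT12 was OsR498G0815706500.01, and it was called at ZT24 as well. At ZT12 it had 5303, 5590 and 5308 in CT12 and 7580 and 5554 and 7333 in NT12, where NT12 replicate 2 overlapped the chilled libraries. At ZT24 it had 5173, 5534 and 5535 in CT24 and 7409, 6165 and 6949 in NT24, with no overlap. The log2 changes were -0.35 (SE 0.13, edgeR adjusted p = 0.0427) at ZT12 and -0.35 (SE 0.13, edgeR adjusted p = 0.0407) at ZT24. The ZT12 call held in 11 of 20 alternatives, with adjusted p from 3.42e-05 to 0.108. Among single libraries it was lost without NT12 replicates 1 or 3 (-0.29 and -0.33), NT24 replicate 3 (-0.35), CT12 replicates 1 or 3 (-0.35 and -0.35) or CT24 replicates 1 or 3 (-0.35 and -0.35). The ZT24 call held in 14 of 20 alternatives, with adjusted p from 0.0105 to 0.107, and was lost without NT24 replicates 1 or 3 (-0.31 and -0.34) or any 1 of the CT24 replicates (-0.33, -0.38 and -0.36).

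At ZT24 the largest called rise was that of OsR498G0509598000.01, with 8063, 9140 and 9816 normalised counts in CT24 and 6925, 6731 and 7366 in NT24, and no overlap. Its change was 0.34 on the log2 scale, with an SE of 0.10 and an edgeR adjusted p of 0.0174. It held in 15 of 20 alternatives, with adjusted p from 0.00189 to 0.0841, and was lost without NT24 replicates 1 or 2 (0.32 and 0.31) or CT24 replicates 2 or 3 (0.32 and 0.28) and under upper-quartile scaling (0.24). The largest called fall was that of OsR498G0306297500.01, with 5155, 4924 and 6583 in CT24 and 8189, 6669 and 6568 in NT24. CT24 replicate 3 lay just above NT24 replicate 3, so the groups overlapped. It changed by -0.38 on the log2 scale, with an SE of 0.13 and an edgeR adjusted p of 0.0393, and the call held in 13 of 20 alternatives, with adjusted p from 0.0124 to 0.135. Single libraries whose removal ended it were NT24 replicates 1 and 2 (-0.29 and -0.43) and CT24 replicates 1 and 2 (-0.34 and -0.31).

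The rule was also applied to the means of fewer libraries, with the libraries left out looked at afterwards. Each replicate number was held out in turn, members were chosen from the means of the 2 other libraries of each group, and the range of log2 normalised counts was then taken over the 4 held-out libraries. Size factors were those of all 12 libraries. With number 1 held out the rule chose 86 genes, and 23 of them (26.7%) had a held-out range of at most 0.4, against 28 of 778 other abundant genes (3.60%). With number 2 held out it was 24 of 67 (35.8%), against 41 of 838 (4.89%), and with number 3 it was 29 of 106 (27.4%), against 18 of 796 (2.26%). The median held-out range was 0.51, 0.45 and 0.56 in the genes chosen, and 1.21, 1.18 and 1.32 in the others. Single libraries vary more than means of 3, which widens the held-out range in both sets, and with 1 library per group no test was made. The others had been kept apart by their wider range, so a gap between the sets follows in part from the rule.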

How the data were processed

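RNA-seq counts of 12 libraries were analysed. The authors deposited whole-number counts per gene, 1 column per library, with no normalization. The submitters' processing notes list HISAT2 2.0.4. For counting tool, build, annotation and strand setting, nothing is given in the sources used here, and values of near-identical or overlapping genes are uncertain. Size factors were medians of ratios over the 22389 rows above 0 in every library. Tests used R 4.3.3 and edgeR 4.0.16 (filterByExpr with minimum count 10 and total 15, TMM, 1 mean per group, 8 residual degrees of freedom). Alternatives used DESeq2 1.42.0, limma 3.58.1, other scalings, no filter, a block and each library left out. Scripts were tested on simulated data. The labels call the 3 libraries of a group biological repeats of 5 plants. Pairs within a group had a chi-square per gene of 25.5 to 139 (genes with at least 20 counts), above sampling noise, so all were kept.

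The members and lists were chosen with earlier results of these data known. Named identifiers were the 3 highest members, those of smallest and largest CV, of smallest range, beside each threshold, and of largest and smallest change among called members. The lists of reference genes and cell type markers matched 0 identifiers and gave no result.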

Additional observations from a re-analysis of the deposited data

Results flagged for a closer look

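For 3 members the response to chilling differed between ZT24 and ZT12 by edgeR's interaction term. The rule had used the same contrasts, so these values are descriptions. They were singled out because they were called.

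OsR498G0509598000.01 had averages of 9006 ± 884 normalised counts in CT24 and 7007 ± 326 in NT24, and of 7520 ± 443 in CT12 and 8732 ± 410.5 in NT12 (SD, n = 3). Libraries of the chilled and the normal group did not overlap at either time. The rise at ZT24 was called, while the value at ZT12, -0.22 on the log2 scale with an edgeR adjusted p of 0.0939, was not. The log2 responses differed by 0.57, with an SE of 0.14 and an edgeR adjusted p of 0.0148. It was called in 19 of 19 alternatives, with adjusted p from 0.000107 to 0.0428, and lay between 0.51 and 0.64 when 1 library was left out.

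OsR498G0916915500.01 averaged 5188 ± 546 in CT24 and 5940 ± 233 in NT24, and 5744 ± 332 in CT12 and 4705 ± 214 in NT12 (SD, n = 3). The difference was -0.49 (SE 0.14, edgeR adjusted p = 0.0256). Under total-count scaling its sign was reversed, at 0.25, where the median of all genes was 0.73. It was called in 9 of 19 alternatives, with adjusted p from 0.00652 to 0.176, and was lost without NT12 replicates 1, 2 or 3 (-0.49, -0.43 and -0.47), NT24 replicate 1 (-0.47), CT12 replicate 1 (-0.45) or CT24 replicates 1 or 3 (-0.45 and -0.45).

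OsR498G0204923600.01 averaged 9312 ± 268 in CT24 and 9636 ± 381 in NT24, and 10063 ± 337 in CT12 and 7830 ± 673 in NT12 (SD, n = 3). The difference was -0.42 (SE 0.14, edgeR adjusted p = 0.0459). Under total-count scaling its sign was reversed, at 0.32, where the median of all genes was 0.73. It was called in 4 of 19 alternatives, with adjusted p from 0.00694 to 0.224. Of the 12 fits with 1 library left out, the call held in 1, that without CT12 replicate 2, and the change ranged from -0.45 to -0.33.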

How the results depend on the processing

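The number of members was 45 with a range of at most 0.3, 284 with a smallest M of at least 11 and 31 with one of at least 13. It ran from 66 (without CT12 replicate 2, 60 of them members) to 113 (without CT12 replicate 3, 89 of them members), and 32 members met the rule without any 1 of the 12 libraries. The median CV stayed between 8.25% and 13.0% with 1 library left out. The held-out share, 30.0% on average, ran from 26.7% to 35.8%.

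With 1 library left out, members called ranged from 2 to 30 in CT12 against NT12, from 1 to 7 in CT24 against NT24, from 3 to 15 in NT24 against NT12, from 1 to 20 in CT24 against CT12 and from 1 to 15 in the interaction. The highest value was each time that without CT12 replicate 2. Their median log2 change ranged from -0.024 to 0.21, -0.061 to 0.025, 0.0045 to 0.11, -0.15 to 0.035 and -0.25 to -0.031 in that order of comparisons. Beside the counts given with the calls, CT24 against NT24 had 2 without NT24 replicate 3, and NT24 against NT12 had 5, 5 and 4 without NT24 replicates 1, 2 and 3 and 4 without CT24 replicate 2. CT24 against CT12 had 2 without any 1 of the NT12 replicates or CT12 replicate 1, and 3 without CT24 replicate 1. The share of all genes called in these fits is not given, so the counts describe only the members' calls.

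Upper-quartile scaling gave 14, 12, 3 and 4 calls in the 4 comparisons of groups, with medians of -0.20, -0.13 and -0.023 in the first 3. All 14 and all 12 were lower in the chilled seedlings, and under it the all-gene medians were -0.31 and -0.12. Of the 24700 genes tested, that scaling called 12201, 10580, 10855 and 10526 in the 4 comparisons. Total counts gave 88, 36, 28 and 54 calls in CT12 against NT12, NT24 against NT12, CT24 against CT12 and the interaction, with medians of -0.67, -0.33, 0.29 and 0.62. That scaling shifts all genes, with all-gene medians of -0.77 at ZT12 and 0.73 in the interaction. Under it OsR498G0816309200.01 had -0.40 at ZT12, and the interactions of OsR498G0204923600.01 and OsR498G0916915500.01 were 0.32 and 0.25. Relative to those medians the 3 values were 0.37, -0.41 and -0.49, against 0.38, -0.41 and -0.49 under TMM. With only the groups compared in the fit, edgeR called 0 members in CT12 against NT12, with 6 at an unadjusted p below 0.05, where limma-voom called 8 and DESeq2 called 9. In CT24 against CT12 limma-voom called 2 and DESeq2 3, and in the interaction DESeq2 called 6. For these fits the share of all genes called is not given. The causes were not tested.

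Same-numbered libraries did not deviate together (r from -0.444 to 0.285 over 18 pairs), and 1 of 12 libraries correlated best with its own number. With the replicate number as a block, 5 members were called in CT12 against NT12, 1 in CT24 against NT24, 9 in NT24 against NT12, 1 in CT24 against CT12 and 2 in the interaction. The share of all genes called with the block is not given. Both calls of OsR498G0815706500.01, that of OsR498G0306297500.01 at ZT24 and the interactions of OsR498G0204923600.01 and OsR498G0916915500.01 were not called in that fit (adjusted p from 0.0536 to 0.0803).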
